A study of Mus musculus with 8 samples.

Results

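Mouse embryonic stem cells labelled as knockout for Erf were compared before and after they lost their last RAS gene, with expression measured on 1-colour arrays. The comparison held 4 of the 8 arrays of the study, chosen by their titles as the OHT-treated and the untreated knockout arrays, replicates 1 and 2 of each. Replicate 1 of both groups came from the cell pool named A2 and replicate 2 from the pool named B2, and each sample was a mix of clones, so at most 2 pools stand behind a value. The 4 arrays of the ERF wild type, from pools A1 and B1, entered the same fit and served as the comparison.

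All groups carried the background H-Ras-/-, N-Ras-/- with the remaining RAS gene flanked by lox sites, and RERTert/ert, an allele that places a tamoxifen-inducible Cre recombinase in the locus of the large subunit of RNA polymerase II. The treated cells received 4-hydroxy-tamoxifen (OHT), which activates that Cre, for at least 2 days, and the untreated cells received no agent. Cells of both kinds were grown on gelatin, without a feeder layer named in the labels, with LIF and serum. The design has no group that received OHT without the lox alleles, so an effect of OHT or of Cre itself and an effect of RAS loss cannot be told apart.

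RAS proteins are small GTPases that pass signals from growth factor receptors through RAF and MEK to the kinase ERK. ERK induces its own inhibitors, among them the Sprouty and Spred proteins and the dual-specificity phosphatases, and it activates transcription factors of the ETS family. ERF is an ETS repressor that active ERK keeps out of the nucleus. In mouse embryonic stem cells, FGF signalling through ERK drives the exit from naive pluripotency towards the formative state, and LIF and low ERK activity favour the naive state.

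Between 55.9% and 61.3% of spots on the 4 knockout arrays were well above background, and none was saturated. Dark areas, where the local signal dropped, covered 5.99% and 2.47% of the spots on the OHT arrays of A2 and B2, against 0.07% and 0.54% on the untreated arrays. They were masked, so 1402 of the 15243 genes in the fit lacked a knockout array, and 15236 could be tested. The 4 arrays lay on 1 slide, the untreated ones in row 1 and the OHT ones in row 2, so slide row and treatment cannot be told apart. All 8 embryonic stem cell markers were above background on every knockout array where they were measured. Of the markers of other cells, the summed linear level of the fibroblast markers (5 of 6 summed) was 18.4 and 16.9 without OHT. With OHT it was 31.9 and 17.7, in the order A2, B2. The 4 primitive endoderm markers, the 2 neural markers and 3 of 4 trophoblast markers were also above background on every knockout array. The trophoblast sum was 3.29 and 0.99 without OHT and 3.19 and 0.70 with it. Elf5 of trophoblast and Mixl1 of mesoderm were above background on no knockout array.

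The single probe for Erf checked the genotype labels. Levels are given throughout as log2 of the processed signal relative to the 75th percentile of the array, and changes as differences of these levels. In pool A2 Erf stood at 3.26 untreated and 3.61 after OHT. Pool B2 stood at 5.42 and 5.07, and the 4 wild type arrays lay between 4.73 and 5.22. The A2 arrays were thus below all wild type arrays and the B2 arrays were not, and whether the probe lies inside the deleted stretch was not known. For this reason the cells are called labelled knockout cells, and values of the leading genes are given by pool. Hras, listed as deleted in all groups, was well above background on all 4 arrays, at 2.67 and 2.92 untreated and 2.46 and 2.73 after OHT in A2 and B2. Nras, also listed as deleted, was measured by 3 probes and rose by 0.38 ± 0.09 (SE, 2 pools, adjusted p = 0.0309), a call lost without either pool (adjusted over all genes in each fit).

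OHT changed 2177 of 15236 genes in the labelled knockout cells (14.3%) at an adjusted p under 0.05, with limma on the 8 arrays and the pool as a block. Of these, 718 were higher (4.71%) and 1459 lower (9.58%). A change of at least 2-fold was reached by 209 called genes (1.37%), 101 higher (0.663%) and 108 lower (0.709%). The median change of all genes was -0.04. The 2 pools share no array, and among 12762 genes above background on all 4 arrays 71.4% changed in the same direction in both, with a Pearson correlation of 0.508 across genes, which are not independent and share their slide. Among the 204 of these genes that changed at least 2-fold in the mean, a choice that used both pools, 98.0% had the same direction.

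These counts rest on the variance model, since 8 arrays leave 2 residual degrees of freedom per gene. Without a trended and robust prior no gene passed, although 3716 had an unadjusted p under 0.05, and without the pool as a block 3 passed (0.0197%), namely Dusp6, Lef1 and Pde2a. Of 124 named genes that were called, 32 kept their call in each of the other 15 settings that tested them, 23 of them lower and 9 higher. Actc1, Insc and Meox1 among these had no value in 1 of the settings. With the arrays centred on the median instead, 278 genes were called, 20.1% of them higher against 33.0%, and the median of all genes stood at -0.24. Quantile normalization gave 1567 genes, 48.4% of them higher, and without the mask 494 were called, 57.9% of them higher. The number called with a change of at least 2-fold, 209 here, was 84 with normexp, 103 without the mask, 277 without pool A2 and 317 without pool B2.

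**Figure D1:**
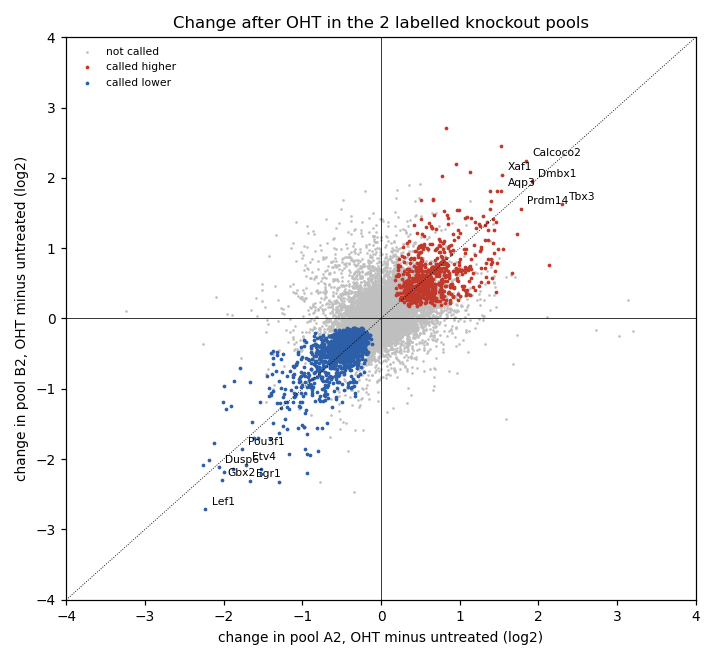
Change after OHT (log2, OHT minus untreated) in pool A2 on the x axis and in pool B2 on the y axis for the genes above background and unmasked on all 4 labelled knockout arrays. Each point is 1 gene, red and blue points passed the test as higher or lower, the dotted line marks equal change, and 71.4% of the points have the same sign on both axes.

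Feedback inhibitors and targets of ERK fell in part. Of 42 measured feedback inhibitors and targets of RAS and ERK, 15 were lower and 4 higher after OHT, against 9.58% and 4.71% of all genes, and the list's median change was -0.33. Dusp6 and Dusp4, phosphatases that switch off ERK, and Etv4 and Etv1, ETS activators of the PEA3 group, fell in both pools, by 3.15-fold to 4.26-fold in the mean. Egr1, an immediate early transcription factor, fell 3.96-fold.

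Dusp6, which removes the activating phosphates of ERK, stood at 5.12 and 5.02 in untreated A2 and B2 and at 3.06 and 2.90 after OHT. The treated arrays lay far below the untreated ones, and the change was -2.09 ± 0.08 (SE, 2 pools, adjusted p = 2.23e-05). Dusp4 went from 2.66 and 2.57 to 0.66 and 0.39, a change of -2.09 ± 0.12 (adjusted p = 0.000106). The treated arrays lay below the untreated ones for both phosphatases, and of the 2 Dusp6 alone kept its call without the pool block. Etv4 differed between the pools before treatment, at 4.25 in A2 and 5.89 in B2, and stood at 2.53 and 3.81 after it. Both treated arrays lay below both untreated ones, with a change of -1.90 ± 0.10 (adjusted p = 0.0001). Etv1 fell from 3.0 and 3.10 to 1.39 and 1.40 (-1.66 ± 0.09, adjusted p = 0.0001). The third PEA3 factor, Etv5, fell less, from 6.17 and 6.89 to 5.69 and 6.34 (-0.51 ± 0.09, adjusted p = 0.012). The Etv5 call was lost without either pool, without the mask and with median centring. Egr1 stood at 1.6 and 0.71 untreated and at -0.07 and -1.6 with OHT.

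The Sprouty and Spred inhibitors, which block RAS activation upstream of RAF, were less uniform. Spry4 fell from -1.18 and -0.37 to -2.82 and -1.84, a change of -1.55 ± 0.22 (adjusted p = 0.00578). Spry2 stood at 0.83 and 0.90 untreated and at -0.08 and -0.05 after OHT, a 1.91-fold fall. Spred1 went from 2.03 and 2.58 to 1.17 and 1.61, also with no overlap between the groups, a 1.89-fold fall. Spry1 went from 0.95 and 1.01 to 0.57 and 0.94 and did not pass the test (-0.23 ± 0.18, adjusted p = 0.443). Nor did Spred2 (-0.39 ± 0.89) or Spred3 (-0.31 ± 0.97), whose errors were large. Spred2 changed by -0.32 in A2 and -0.47 in B2. Its error also draws on the wild type pools, which changed by -0.12 in A1 and 2.695 in B1. Spred3 fell in A2, from -3.38 to -5.76, and stood higher in B2, at -3.88 and then -2.12. The 4 members that were higher, by 0.39 to 0.66, were Jun, a part of the AP-1 factor, Emp1, Epha4 and Dusp14. Myc, the growth-promoting transcription factor, fell from 2.44 and 2.81 to 1.45 and 1.27 (-1.26 ± 0.22, adjusted p = 0.0166).

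**Figure D2:**
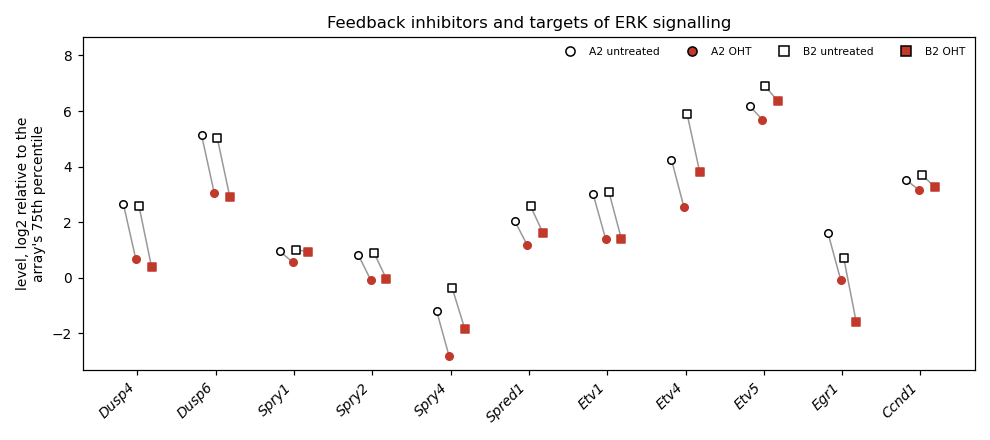
Level of 11 feedback inhibitors and targets of ERK (y axis, log2 relative to the 75th percentile of the array) in pool A2 (circles) and pool B2 (squares), untreated (open) and after OHT (red), with a line joining the arrays of a pool. Dusp6 drops from 5.12 and 5.02 to 3.06 and 2.90, while Spry1 in B2 stands at 1.01 and 0.94.

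The promoters of Dusp6, Spred1 and Pde2a are shown because these genes fell and their windows hold the short ETS motif, and that of Rrp9 because it led the fall of the ribosome biogenesis genes described below. The windows run from 250 bases before to 50 bases after the annotated start, 5′ to 3′ on the strand of the gene, from RefSeq with build GRCm38.p6. Capitals mark CGGAAG, or CTTCCG where the motif lies on the opposite strand.
Dusp6: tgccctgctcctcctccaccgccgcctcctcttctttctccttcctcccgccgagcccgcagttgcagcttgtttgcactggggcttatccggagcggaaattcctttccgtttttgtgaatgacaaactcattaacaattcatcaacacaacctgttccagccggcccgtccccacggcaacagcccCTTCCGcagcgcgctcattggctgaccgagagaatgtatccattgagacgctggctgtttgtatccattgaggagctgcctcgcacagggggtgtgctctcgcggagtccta
Spred1: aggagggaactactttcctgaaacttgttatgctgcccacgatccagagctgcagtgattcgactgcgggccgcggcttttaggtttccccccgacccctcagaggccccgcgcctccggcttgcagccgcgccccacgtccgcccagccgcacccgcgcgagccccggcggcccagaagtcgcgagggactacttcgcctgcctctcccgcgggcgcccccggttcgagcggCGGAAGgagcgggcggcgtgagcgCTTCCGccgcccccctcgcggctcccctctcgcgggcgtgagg
Pde2a: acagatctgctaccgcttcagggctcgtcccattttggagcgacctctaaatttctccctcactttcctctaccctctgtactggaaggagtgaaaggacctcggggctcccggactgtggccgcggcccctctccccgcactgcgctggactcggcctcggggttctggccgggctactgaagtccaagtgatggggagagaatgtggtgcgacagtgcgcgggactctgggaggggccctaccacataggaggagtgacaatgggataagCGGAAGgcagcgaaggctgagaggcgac
Rrp9: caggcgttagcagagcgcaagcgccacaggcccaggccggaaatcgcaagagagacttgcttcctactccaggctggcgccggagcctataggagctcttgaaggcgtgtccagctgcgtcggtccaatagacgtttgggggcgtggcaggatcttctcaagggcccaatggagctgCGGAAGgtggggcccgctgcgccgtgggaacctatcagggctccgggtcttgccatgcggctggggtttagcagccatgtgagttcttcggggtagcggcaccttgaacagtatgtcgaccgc
The Dusp6 window is chr10:99262981-99263280 on the plus strand and its match begins at position -62 relative to the start. Spred1 (chr2:117120821-117121120, plus strand) has 2 matches, on opposite strands, the first at position -17. Pde2a (chr7:101450766-101451065, plus strand) has several annotated starts, and the window shown has its match at position 22. In Rrp9 (chr9:106477059-106477358, plus strand) the match begins at position -73.

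A window was given for 12104 of the 15236 tested genes and for 100 of the 134 named ones. CGGAAG, on either strand, was in at least 1 window of 30.6% of the tested genes, 36.3% of those called lower and 17.0% of those called higher. Among genes called lower by at least 2-fold it was in 15.4% of 78, and among those called higher by at least 2-fold in 6.76% of 74. The longer motif CCGGAAGT, which contains CGGAAG, was in 7.78% of tested, 10.03% of lower and 1.27% of higher genes. Of 24 ribosome biogenesis genes called lower, 12 held CGGAAG and 7 CCGGAAGT, and of all 31 measured genes of that list with a window 14 and 8 did. Of the ERK feedback and target genes called lower, 2 of 7 held CGGAAG and 0 CCGGAAGT, and of the formative genes called lower 2 of 11 and 0. The E-box CACGTG, bound by Myc and its partners and searched after the data had been seen, was in 11.2% of tested, 13.5% of lower and 9.78% of higher genes, and in 5 of those 24. Over all 32851 windows the shares were 16.9% for CGGAAG, 3.89% for CCGGAAGT and 7.15% for CACGTG. These shares describe the letters in the windows only.

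Of 27 RAS, RAF, MEK and ERK components 2 were higher and 4 lower, against 4.71% and 9.58% of all genes, with a median of -0.12. None was called without pool A2, without the mask, with probes averaged or with median centring, and without B2 1 was higher and 1 lower. Rras, a RAS-related GTPase, rose by 0.47 ± 0.12 and Shc1, an adaptor of receptor kinases, fell by 0.38 on the log2 scale. Braf, the RAF kinase, fell from 2.48 and 2.42 to 2.01 and 2.02 by its brighter probe. Its 2 probes changed by -0.43 and -0.32, yet the fit on probes averaged within each array gave 0.23. That average holds only the probes left unmasked on an array, and the reason for the turn was not tested. Apart from the PEA3 factors, the only called member among 20 ETS factors was Etv2, a regulator of blood and endothelial fate, at 0.10 and 0.29 untreated and -0.96 and -0.18 after OHT. Of 16 FGF ligands and receptors 1 was higher and 2 were lower. Fgf5, the ligand that marks the formative epiblast, stood at 0.28 in A2 and -2.58 in B2 and fell to -1.69 and -3.86 (-1.63 ± 0.21, adjusted p = 0.00436). Fgf15 fell from -0.56 and -0.64 to -2.42 and -1.53. The receptor Fgfr1 rose by 0.28 ± 0.07.

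Of 33 measured naive pluripotency genes, 13 were higher after OHT and 2 lower, against 4.71% and 9.58% of all genes, and the median change was 0.42. The rises included the transcription factors Tbx3, Prdm14, Nanog, Tfcp2l1 and Klf2, the germ cell and early embryo gene Dppa3, and Calcoco2, an autophagy receptor gene that the list counts among naive markers. Gbx2, also listed as naive, fell 4.48-fold.

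Calcoco2 had the largest rise of the called genes that were above background on all 4 arrays and rose in both pools. Symbols that start with Gm or end in Rik were not ranked. Calcoco2 went from 1.19 and 0.83 to 3.03 and 3.07 (2.04 ± 0.11, adjusted p = 0.000106), and its 2 probes rose by 1.98 and 2.04. Tbx3 rose from 0.90 in A2 and 2.01 in B2 to 3.19 and 3.64. Its change was 1.96 ± 0.22 (adjusted p = 0.00731), a call lost without the mask. Prdm14, which represses FGF signalling genes in this state, rose from -2.17 and 0.09 to -0.38 and 1.65, a change of 1.67 ± 0.14. Untreated B2 arrays thus had more Prdm14 than treated A2 arrays, so the groups overlapped, and both pools rose. Nanog stood at 4.07 in A2 and 5.64 in B2 and rose to 5.46 and 6.42 (1.09 ± 0.14, adjusted p = 0.00724). Esrrb, at 4.24 and 6.45 untreated and 5.05 and 6.83 after OHT, and Klf4, at 1.85 and 3.84 and then 2.99 and 4.17, were higher in both pools without passing the test (adjusted p = 0.143 and 0.162). Gbx2 fell from 2.08 and 3.50 to 0.05 and 1.20 (-2.16 ± 0.21, adjusted p = 0.00328). That call did not pass without pool A2.

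Of 34 measured formative and primed epiblast genes, which mark the exit from the naive state, 16 were lower and 3 higher. Their median change was -0.38, and of all genes 9.58% were lower and 4.71% higher. The lower ones included the WNT effector Lef1, the homeobox factor Otx2, the POU factor Pou3f1, Fgf5, Tcf15 and the DNA methyltransferase Dnmt3b. Lefty2, an inhibitor of Nodal that the list also holds, rose.

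Lef1 showed the largest fall of the called genes that were above background on all 4 arrays and fell in both pools. Symbols of the Gm and Rik kind were again not ranked. Lef1 went from 3.64 and 3.63 to 1.40 and 0.92 (-2.47 ± 0.13, adjusted p = 0.000106), and its 2 probes fell by 2.47 and 2.62 on the log2 scale. Otx2 went from 2.90 and 2.81 to 1.38 and 0.67 (-1.83 ± 0.15, adjusted p = 0.000995). Pou3f1 was higher in A2 than in B2, at 4.24 and 2.41, and fell to 2.48 and 0.55 (-1.81 ± 0.08, adjusted p = 5.35e-05), so that treated A2 cells were at the level of untreated B2 cells. Tcf15, at 4.00 and 4.49 untreated, stood at 2.63 and 3.01 after OHT. In the core pluripotency list, 10 of 21 members were lower and 1 higher, against 9.58% and 4.71% of all genes. The higher share, 4.76%, was thus near that of all genes. Pou5f1, the central factor of the list, stood at 3.68 and 5.28 untreated and 3.70 and 5.12 after OHT, and Sox2 at 2.71 and 3.35 and then 2.94 and 3.45, and neither passed the test. Utf1, a chromatin factor of undifferentiated cells, fell from 6.58 and 6.91 to 5.59 and 6.10, and Foxd3 from 0.59 and 0.78 to -0.08 and 0.15. The higher member was Tcf7l1, a repressor of pluripotency genes in the WNT pathway, at 1.92 and 1.56 untreated and 2.37 and 2.78 after OHT.

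Of 16 DNA methylation genes 4 were lower and 0 higher at the adjusted threshold, against 9.58% and 4.71% of all genes. Dnmt3b, a de novo methyltransferase, fell from 7.07 and 6.81 to 6.19 and 5.82 (-0.94 ± 0.07, adjusted p = 0.000387), and its 3 probes all fell, by 0.94 to 1.20 on the log2 scale. Dnmt3a and the cofactor Dnmt3l fell as well, by 0.67 and 0.39 on that scale. Mbd3, a subunit of the NuRD complex, fell from 6.04 and 6.02 to 5.51 and 5.76.

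**Figure D3:**
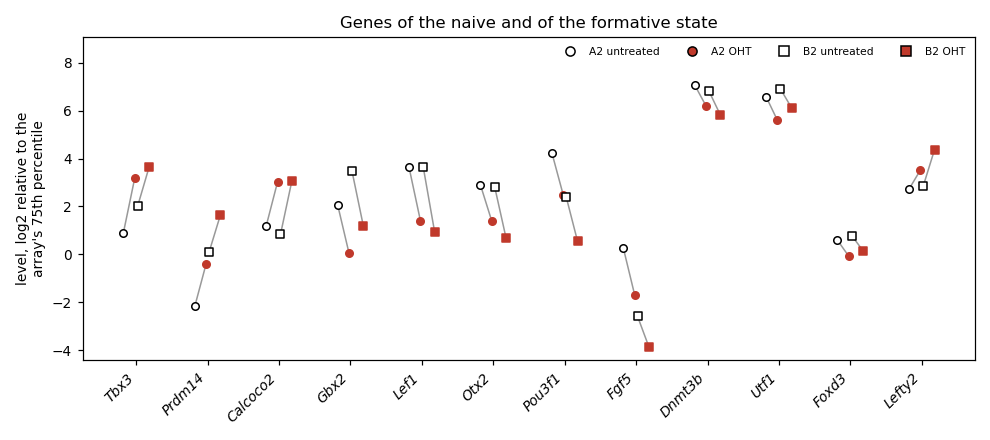
Level of 12 genes of the naive and the formative state (y axis, log2 relative to the 75th percentile of the array) in pool A2 (circles) and pool B2 (squares), untreated (open) and after OHT (red), with a line joining the arrays of a pool. Tbx3, Prdm14, Calcoco2 and Lefty2 rise in both pools, and Gbx2, Lef1, Otx2, Pou3f1, Fgf5, Dnmt3b, Utf1 and Foxd3 fall in both.

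Genes of the Nodal, BMP and WNT pathways, which pattern the epiblast, were called in both directions, the lower shares lying near that of all genes. In the Nodal, TGF-beta and BMP list 6 of 27 members were higher (22.2%) and 3 lower (11.1%), against 4.71% and 9.58% of all genes. Lefty2 rose from 2.71 and 2.84 to 3.51 and 4.38 (1.17 ± 0.24, adjusted p = 0.0382), more in B2 than in A2, and did not pass without B2. Id4, an inhibitor of bHLH factors, and Ltbp1, which holds latent TGF-beta in the matrix, rose by 0.81 and 0.70. Skil, a repressor of SMAD transcription factors, fell from 3.68 and 3.21 to 2.89 and 2.41 (-0.80 ± 0.07, adjusted p = 0.00111). Tdgf1, the Nodal coreceptor, fell by 0.57 on the log2 scale. Of 22 WNT response genes 5 were higher (22.7%) and 3 lower (13.6%). Sfrp1, a secreted WNT antagonist, rose from -1.88 and -1.46 to -0.75 and 0.62, and Dkk1, another antagonist, from -2.71 and -4.20 to -1.23 and -3.20. Wnt8a, a ligand of the early epiblast, fell from -1.33 and -2.98 to -2.65 and -4.18, and Lef1 fell most.

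For genes of other lineages the shares called are read against 4.71% higher and 9.58% lower of all genes. Of 17 neural ectoderm genes 4 were higher and 2 lower, with a median change of 0.19 in A2 and 0.61 in B2. The summed linear level of the neural markers Sox1 and Pax6 was 0.52 and 0.37 untreated and 0.48 and 0.79 after OHT, in the order A2, B2, and its part in that result was not tested. Dmbx1, a homeobox factor of the anterior brain, rose from -2.90 and -3.28 to -0.97 and -1.33 (1.94 ± 0.19, adjusted p = 0.00125). Hesx1, a repressor of the anterior neural plate, rose from -3.40 and -2.06 to -2.07 and -0.73. Of 22 trophoblast genes 2 were higher, Krt19 and Gata3, and 3 were lower, among them Cdx2, which went from 0.19 and -0.90 to -0.31 and -2.09, and Hand1. Of 22 primitive endoderm genes 4 were higher, among them the basement membrane genes Lama1 and Nid1 and the lipoprotein gene Apoe, by 0.40 to 0.55, and Cubn was lower. Of 18 primitive streak and mesoderm genes 1 was higher, Wnt3, and 2 were lower, Hand1 and Meox1, shares near those of all genes. Gata4, Gata6, Sox17 and Sox7, the defining primitive endoderm factors, had a summed linear level between 0.63 and 0.70 on the 4 arrays. In bulk samples more cells of a type and more RNA per cell cannot be told apart.

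Genes that mark rare states of these cultures were also lower in part. Of 15 measured genes of the 2-cell-like state 6 were lower and 0 higher at the adjusted threshold. Of the 6, 4 were Zscan4 copies, whose near-identical sequences the probes may not separate, so they are uncertain as single genes. Zscan4c stood at 5.45 in A2 and 0.87 in B2 and fell to 4.93 and 0.36 (-0.51 ± 0.08, adjusted p = 0.00846). The gap between pools was thus far larger than the change with OHT. In the germline list Mael, Tdrd5 and Mov10l1 of the piRNA pathway fell and Tdrd7 rose, out of 20 measured, against 9.58% lower and 4.71% higher of all genes. Mov10l1 and Tdrd7 lost their calls without either pool, which left 2 lower without A2 and 1 without B2.

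Genes of the cytoskeleton and the matrix were higher in part. Of 22 contractile genes and targets of the serum response factor, 9 were higher and none lower at the adjusted threshold, with a median of 0.41. Among all genes 4.71% were higher and 9.58% lower. Actc1, cardiac actin, rose from 0.01 and -3.48 to 1.07 and -2.04 (1.25 ± 0.20, adjusted p = 0.00801), and Cald1, Acta1 and Actg2 rose by 0.71 to 0.72. Of 26 fibroblast and feeder cell genes 5 were higher. All 26 had a change above 0, the lowest 0.19, against 6860 of all 15236 tested genes with a change above 0. Prrx1, a mesenchymal homeobox gene, went from -2.62 and -2.49 to -1.21 and -1.91, and Col1a2, a chain of type I collagen, from 3.68 and 3.19 to 4.45 and 3.38. The median change of the fibroblast list was 0.71 in A2 and 0.26 in B2. Without B2 13 of its genes were called and without A2 0 were. The summed fibroblast markers given above moved with it in A2, and their part in the contractile result was not tested.

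Genes of ribosome production fell by small amounts. Of 35 ribosome biogenesis genes 25 were lower and none higher at the adjusted threshold, against 9.58% and 4.71% of all genes. Their median change was -0.36, with a range from -0.60 to -0.12. Rrp9, which binds the U3 small nucleolar RNA, led with a fall from 4.09 and 4.33 to 3.40 and 3.81 (-0.60 ± 0.09, adjusted p = 0.00636), followed by Bop1, from 5.04 and 5.27 to 4.37 and 4.80, Rrp1b and Nob1. Without the dark area mask 5 of the 35 passed, with quantile normalization 14 and with median centring 0, where the median was -0.58 against -0.24 for all genes. Of 35 cytosolic ribosomal protein genes 12 were lower, with a median of -0.18, by amounts such as 0.34 for Rps14 and Rpl10a and 0.30 for Rps20 on the log2 scale. Under quantile normalization none of them was lower and 1 was higher, with a median of -0.01, so this direction depends on the scaling.

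Cell cycle genes showed the same small scale. Of 16 cell cycle inhibitors 4 were higher and 1 lower. Gadd45b, a growth arrest gene, rose from 2.50 and 1.79 to 3.33 and 2.54 (0.79 ± 0.08, adjusted p = 0.00158), Btg2, an antiproliferative p53 target, from 1.79 and -0.06 to 2.61 and 0.66, and Cdkn1b, the CDK inhibitor p27, from 0.72 and 2.11 to 1.14 and 2.67. Cdkn2a, whose locus encodes p16 and p19ARF, rose by 0.46 ± 0.10. The lower one was Cdkn1c, an imprinted CDK inhibitor, which was measured in B2 alone, at 4.63 and then 3.60. Of 11 G1 cyclins and kinases 3 were lower. Ccne1, cyclin E1, fell from 6.55 and 6.92 to 5.93 and 6.40 (-0.57 ± 0.06, adjusted p = 0.00168), Ccnd1, cyclin D1, from 3.52 and 3.70 to 3.16 and 3.27, and E2f2 from 1.30 and 2.84 to 0.77 and 1.94. Of 29 DNA replication genes 6 were lower, of 25 mitosis genes 4 were, and 0 of either list were higher at the adjusted threshold, against 9.58% lower and 4.71% higher of all genes. Cdc20, the activator of the anaphase-promoting complex, fell by 0.43 on the log2 scale and Rfc5, a clamp loader subunit, by 0.42. Without pool A2 2 replication genes and 1 mitosis gene passed, and with quantile normalization or without the mask 1 gene of each list did.

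Metabolic lists changed in part. Of 26 glycolysis and glucose uptake genes 10 were lower and 3 higher, against 9.58% and 4.71% of all genes. Pdk1, which inhibits pyruvate dehydrogenase, fell from 1.77 and 3.47 to 0.67 and 2.35 (-1.11 ± 0.10, adjusted p = 0.000989) and Pfkm, the muscle phosphofructokinase, from 2.42 and 2.83 to 1.81 and 2.17. The lactate transporter gene Slc16a3 also fell, while the glucose transporter gene Slc2a3 rose from 6.23 and 6.09 to 6.87 and 6.54. With quantile normalization 3 of this list were lower and 4 higher. Of 23 genes of the amino acid and ATF4 response 6 were lower, among them Phgdh and Psph of serine synthesis and the mitochondrial folate enzyme gene Mthfd2. The median change of that list was 0.04 in A2 and -0.45 in B2, and without B2 1 was lower and 4 were higher. The cholesterol synthesis list had a median change of 0.33 in A2 and 0.02 in B2, and Fdps, an enzyme gene of that pathway, went from 5.06 and 5.53 to 5.43 and 5.89, a call lost without either pool.

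Of 34 lysosome and autophagy genes 12 were higher and 1 was lower, with a median of 0.26. Besides Calcoco2 they included Lamp2, a lysosomal membrane protein, from 0.96 and 1.1 to 1.87 and 1.40, Ulk1, the kinase that starts autophagy, from 4.21 and 5.13 to 4.97 and 5.53, and Tfeb, a transcription factor of lysosomal genes, from -1.71 and -1.34 to -1.24 and -0.63. The lower member was Tfe3, a relative of Tfeb, at 4.91 and 4.92 untreated and 4.61 and 4.21 after OHT. With median centring 1 of the list was called higher, and without the mask 2 were. Of 26 p53 targets and cell death genes 2 were higher and 3 lower, near the 4.71% and 9.58% of all genes. Bcl2l11, the proapoptotic BIM, fell from 0.98 and 0.19 to -0.06 and -0.65 (-0.94 ± 0.12, adjusted p = 0.00363), and Mcl1, an antiapoptotic relative, fell by 0.39 on the log2 scale. Of 23 interferon response genes 4 were higher and 3 lower. Xaf1, a proapoptotic interferon-induced gene, rose from -2.90 and -1.38 to -1.36 and 0.66 (1.79 ± 0.16, adjusted p = 0.000999) and B2m, the light chain of MHC class I, from 2.49 and 1.53 to 3.24 and 2.47, whereas Bst2 and Oasl2 fell.

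**Figure D4:**
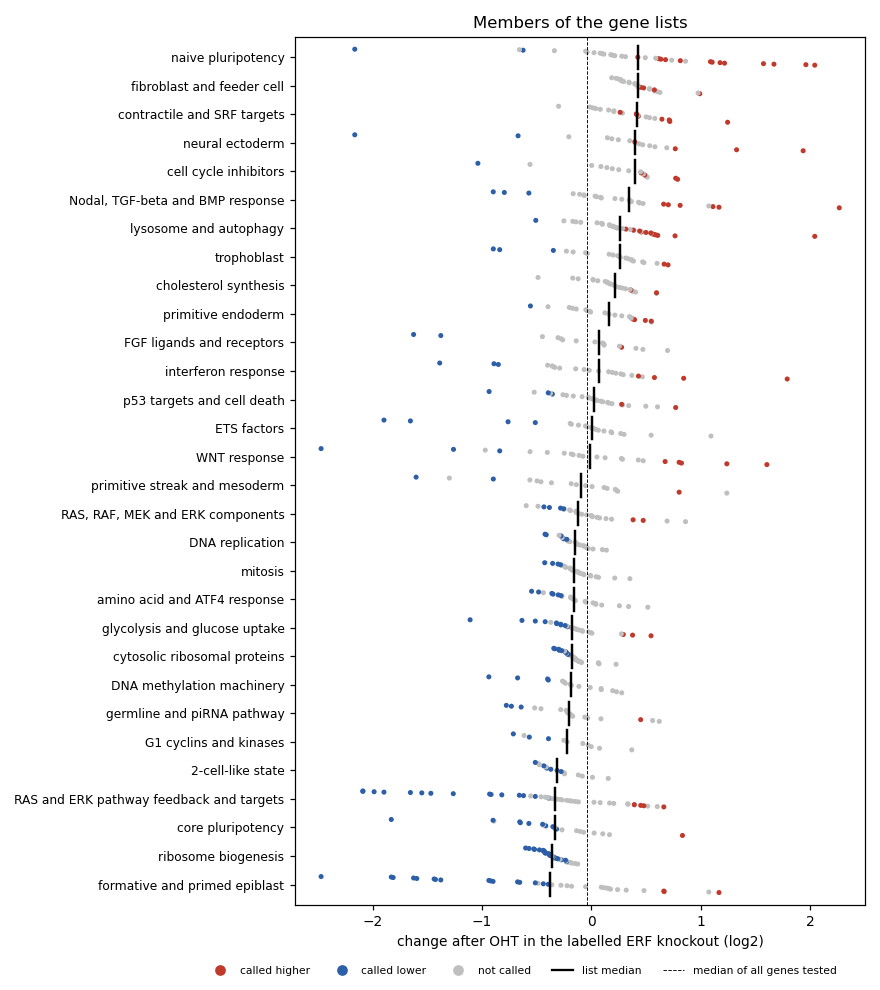
Change after OHT in the labelled ERF knockout (x axis, log2) of each measured member of the 30 gene lists, 1 point a gene, ordered by the list's median (black bar), with the median of all genes tested, -0.04, as a dashed line. Red and blue points passed the test as higher or lower. The formative list has the lowest median, -0.38, and the naive and fibroblast lists share the highest, 0.42.

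Some list counts changed when a single pool or the mask was left out. Fewer genes were called over all genes as well in each of these settings. The counts below therefore do not show by themselves that a list depends on a pool or on the mask. Without pool A2 the genes called lower were 9 of the ERK feedback and target list, 4 of the core pluripotency list, 5 of ribosome biogenesis, 2 of the ribosomal proteins and 1 of the 2-cell-like state, and the genes called higher were 3 of the contractile list, 3 of lysosome and autophagy and 2 of WNT response. Without pool B2 5 ribosomal protein genes and 6 core pluripotency genes were lower, and 2 neural ectoderm genes were higher. Of the glycolysis list 4 were lower without A2 and 5 without B2. The naive list had 12 higher members without A2 and 10 without B2, and the formative list 12 lower ones without either pool. Without the mask 10 ERK feedback and target genes and 7 formative genes were lower and 6 naive genes were higher. Of all 15182 genes tested in that setting 208 were lower and 286 higher.

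Several of the largest changes lay outside the lists. Pde2a, a phosphodiesterase that breaks down cyclic nucleotides, fell from 3.26 and 3.20 to 1.08 and 1.19 (-2.10 ± 0.09, adjusted p = 4.12e-05) and, like Dusp6 and Lef1, passed without the pool block. Vrtn fell from 1.15 and 0.35 to -0.73 and -1.79 and Insc, an adaptor for spindle orientation, from -2.51 and -1.64 to -4.77 and -3.71. Col6a5, a collagen VI chain, fell from -1.01 and 0.35 to -3.13 and -1.42. Among the rises, Aqp3, a water and glycerol channel, went from 0.32 and 1.57 to 1.85 and 3.40 (1.67 ± 0.10, adjusted p = 0.00016), and Serpinb6d, a serine protease inhibitor, from -2.42 and -1.78 to -0.94 and 0.04. Cdhr1, a cadherin-related gene, rose from -2.39 and -4.60 to -1.57 and -1.89, with a change of 0.82 in A2 and 2.70 in B2. For Slc8b1, a mitochondrial sodium and calcium exchanger, the brighter probe rose by 1.99 and the other changed by 0.01, so that rise is uncertain.

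The response could be set against that of the ERF wild type, whose arrays share none with it. Wild type pool A1 lay on the slide of the knockout arrays, but with OHT in row 1 and untreated in row 2. Both B1 arrays lay in row 2 of another slide. Genotype and this layout cannot be fully told apart. In the wild type 2753 of 15242 genes were called (18.1%), 1374 higher (9.01%) and 1379 lower (9.05%). Both genotypes called 506 genes higher, which is 70.5% of those in the labelled knockout and 36.8% of those in the wild type. They called 777 lower, which is 53.3% and 56.3%. Both sets of calls came from the same fit with a shared error for each gene. A gene with a small error is thus more easily called in both genotypes, which adds to the overlap. Of all 2177 genes called in the labelled knockout, 94.8% changed in the same direction in the wild type. The same share over all tested genes was not computed, so 94.8% has no baseline here. In the wild type 3 of the 2177 were called in the opposite direction. Of the 108 that fell at least 2-fold 94 were called lower there as well. Of the 101 that rose at least 2-fold 66 were called higher there and 1 lower. The changes of Dusp6, Dusp4, Etv4, Etv1 and Egr1 in the wild type were -2.28, -2.36, -2.07, -1.58 and -2.35, and none of the 5 differed between genotypes at the adjusted threshold (lowest adjusted p = 0.581). Spry4 changed by -2.94 and Spry2 by -1.73 there, with adjusted p values of the difference of 0.245 and 0.242.

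The difference of the changes, labelled knockout minus wild type, passed the adjusted threshold for 0 of 15236 genes in limma, although 1493 had an unadjusted p under 0.05 and the lowest adjusted p was 0.0726. An adjusted p under 0.10 was reached by 18 genes. In all 18 the change was closer to 0 in the labelled knockout, and the same share over all genes was not computed. The sign was the same in both genotypes for 14 of them. Uchl3, at 1.06 against -1.12, and Zfp992, at 0.42 against -0.47, had opposite signs and nearly equal sizes. Aqp3 changed by 1.67 against 2.82 in the wild type (difference -1.14 ± 0.14). Gata2, a GATA factor of trophoblast and blood, changed by 0.60 against 2.57, Cidea, a lipid droplet protein gene, by 0.53 against 1.95, Hesx1 by 1.33 against 2.85, and Elf3, an epithelial ETS factor, by 0.27 against 1.70. Robo4, a guidance receptor of endothelium, changed by -0.76 against -2.04. Background correction by normexp gave 215 genes past the threshold, and leaving out a pool gave 68 without B2, 0 without A2 and 6 without either wild type pool.

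The medians of the lists in both genotypes are given without a test. Medians of the naive list were 0.42 in the labelled knockout and 0.87 in the wild type, with an unadjusted p of the difference under 0.05 for 12 of its 33 members and a lowest adjusted p of 0.116. For trophoblast the medians were 0.26 and 0.54, with 2 genes called higher against 11. The fibroblast list stood at 0.42 and 0.14. The change of each of its 26 members was higher in the labelled knockout, as was that of 6451 of all 15236 tested genes. In the labelled knockout the median of this list was 0.71 in A2 and 0.26 in B2. The ribosome biogenesis list stood at -0.36 and -0.28, with an unadjusted p under 0.05 for none of 35, and the formative list at -0.38 and -0.37.

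**Figure D5:**
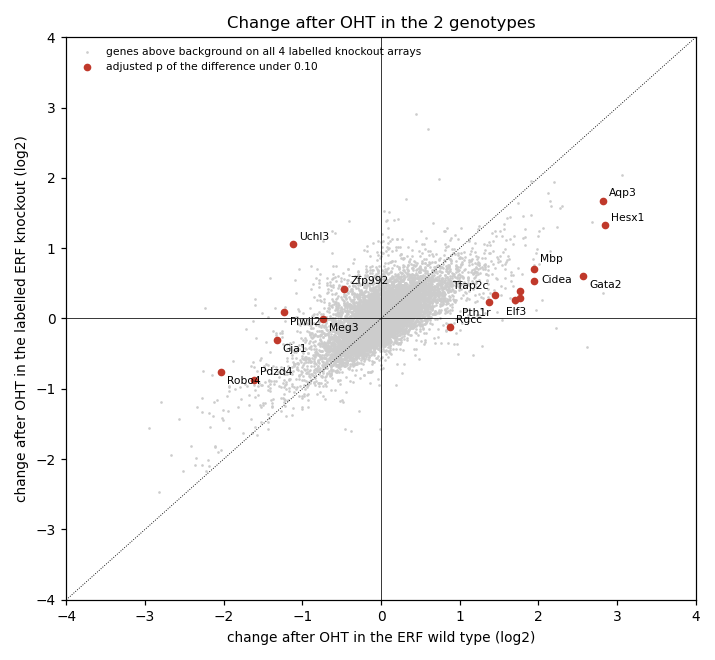
Change after OHT in the ERF wild type (x axis, log2) and in the labelled ERF knockout (y axis, log2), 1 point a gene, for genes above background on all 4 labelled knockout arrays, with the dotted line at equal change. Red points are the 18 genes whose difference had an adjusted p under 0.10, of which 16 are named. All 18 lie closer to 0 on the y axis than on the x axis, by little for Uchl3 and Zfp992. The sign is the same on both axes for 14 of them.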

How the data were processed

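Total RNA of each sample was labelled with Cy3 and hybridised to 1 Agilent array, per the labels' protocols. The deposited scanner files hold spot intensity after background subtraction and spatial detrending by Agilent Feature Extraction 11.5.1.1, with no scaling between arrays, per the file headers. Normexp was run on the deposited median intensity of spot and local background, since the files used hold no mean signal. A deposited table of log2 values correlated with the scanner values between -0.0085 and 0.0002 by probe name, with column medians from -0.158 to 0.133. Its scale, centring and naming stay unknown and it was not used. The authors' own normalization and tests are not given in the sources consulted.

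Of 62976 spots per array 59305 were no controls. Flagged outlier spots were left out, and so were areas where the median over 11 × 11 spots fell by more than 0.5 on the log2 scale, grown by 3 spots. Spots of a probe were averaged, and 28026 of 55681 probes were named through RefSeq (GRCm38.p6, names only) as 21154 genes. The log2 processed signal minus the 75th percentile of its array was fitted with limma 3.58.1 (R 4.3.3): lmFit with the 4 pools as fixed blocks and an OHT effect per genotype, eBayes with trend and robust options, two-sided, Benjamini-Hochberg over all genes. Probes had to be well above background on the measured arrays of at least 1 group, and the brightest probe stood for a gene. Errors are standard errors of the fit. Nothing says how far the pools were independent cultures. The p-values rest on how far the OHT change differed between the pools of a genotype, taken over both genotypes and moderated by the prior. Errors of the labelled knockout thus draw on the wild type arrays too. The number of arrays limits the precision.

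The numbers pair the samples: treated and untreated arrays of a number come from the same pool. Their deviations from the group means correlated at 0.717 in the labelled knockout. Between the genotypes, whose pools differ, such deviations correlated at 0.556 untreated and 0.494 with OHT. A correlation of this kind was thus not limited to arrays that share a pool. The fit was also run on simulated data with known changes, whose noise was drawn from the fit's own moderated variances. That run checks the code only and cannot test the prior on which the counts rest. The 30 lists, of which 42 of 742 genes are in over 1, the members and the rules were chosen with earlier results of these data known, and no list was tested as a set. Named genes, leaving out symbols that start with Gm or end in Rik, are Erf, the RAS genes and the 10 largest rises and falls. These rises and falls were called, above background on all 4 arrays and of the same direction in both pools. Also named by rule are up to 4 called members a list and all Sprouty, Spred and PEA3 genes with Dusp4 and Dusp6. The 6 smallest p each way for the difference complete the rule. Others, such as Myc, Nanog, Tcf15, Esrrb and Cdkn1c, were chosen after their values were seen. Some genes that the rule names are not reported here. Promoters are RefSeq windows, searched on both strands. Figures were drawn with matplotlib 3.10.9.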

Additional observations from a re-analysis of the deposited data

Results flagged for a closer look

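In 6 named genes both pools of the labelled knockout had a change of one sign after OHT and both pools of the wild type the other sign. The difference itself was tested in the limma fit and passed the adjusted threshold of 0.05 in none of the 6. The difference (labelled knockout change minus wild type change, log2) was 2.18 for Uchl3, a ubiquitin hydrolase gene that changed by 1.06 against -1.12 (adjusted p = 0.0726). For Zfp992, a zinc finger gene, it was 0.90, with changes of 0.42 and -0.47 (adjusted p = 0.0726), and its 2 probes disagreed, at 0.42 and -0.32 in the labelled knockout. For Piwil2, a PIWI protein gene of the germline, it was 1.32, with changes of 0.09 and -1.23 (adjusted p = 0.0836), but its change in A2 was 0.0031, near 0, and its direction turned with median centring. Cdkn2a differed by 0.64 (changes of 0.46 and -0.19, adjusted p = 0.227), and its change in wild type pool B1 was -0.0066, near 0. Rrm2, a ribonucleotide reductase subunit gene, differed by -0.44 (changes of -0.26 and 0.18, adjusted p = 0.161), and Mcm4, of the replicative helicase, by -0.29 (changes of -0.25 and 0.03, adjusted p = 0.391).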

How the results depend on the processing

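Against 2177 genes called, 3 were called with no replicate block, 494 without the dark area mask, 0 with plain eBayes, 278 with arrays centred on the median and 918 with probes of a gene averaged. Leaving out 1 pool gave 910 (without pool A2) to 1911 (without wild type pool B1), with 1354 without B2. The other settings, namely a stricter mask, normexp, quantile normalization, both filters, the 4 labelled knockout arrays alone, array weights and, chosen after seeing the data, genes measured on all 8 arrays, gave 1489 to 2421.

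Against 0 genes whose change differed between genotypes, normexp gave 215, median centring 14, averaged probes 2, and leaving out 1 pool 0 to 68, with 6 without either wild type pool. Erf, at -0.002 in the pool-blocked fit, stood at 0.0851 without the mask, 0.000425 with the stricter mask, 0.104 with quantile normalization, 0.348 without B2 and -0.353 without A2. Meg3 stood at -0.01, and at 0.0772 without the mask, 0.048 with normexp, 0.104 with quantile normalization, 0.0589 without B2 and -0.0794 without A2. Piwil2 stood at -0.11 with median centring, Braf at 0.23 with probes averaged and Spred3 at 1.76 without A2 and -2.38 without B2. The cause of these changes was not tested. Probes near background and the 1402 genes without 1 of the knockout arrays are the least precise, and 86 of the genes called rest on 1 pair.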

Other observations

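Further genes with an adjusted p under 0.10 for the difference between genotypes were not described above. Ackr3, a chemokine-scavenging receptor, changed by 0.39 in the labelled knockout and by 1.77 in the wild type, and Pth1r, the parathyroid hormone receptor, by 0.23 and 1.37. Tfap2c, an AP-2 factor of trophoblast and germ cells, changed by 0.34 and 1.45, Mbp, myelin basic protein, by 0.70 and 1.95, and Itgb3, an integrin chain, by 0.30 and 1.76. Pdzd4 changed by -0.87 and -1.61. Gja1, the gap junction protein connexin 43, changed by -0.30 and -1.33. For Rgcc the changes were -0.12 and 0.88, and for Meg3, an imprinted noncoding RNA measured by 3 probes, -0.01 and -0.74, while single probes of Meg3 ranged from -0.67 to 0.32 in the labelled knockout. None of these differences passed the adjusted threshold of 0.05 in limma.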
